A study of Mus musculus with 11 samples.

Results

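The transcriptome of bile duct epithelial cells was described in mice that had received no injury. It rests on 4 of the 11 libraries of the study, those of the Control group, wildtype male C57BL/6 mice of 14 to 16 weeks that ate chow throughout. The other 7 libraries, 4 from mice fed DDC and 3 from mice returned to chow after DDC, do not enter any value here. Livers were dissociated and cells that bound beads against EpCAM (CD326) were kept after passage over a pair of magnetic columns, and poly(A) RNA was sequenced. Such a selection takes every cell that carries EpCAM, with no second surface marker, so it yields a fraction enriched for cholangiocytes and not a sorted pure population. The unit of replication is the library, numbered Control 1 to Control 4 as in the labels, and all errors below are SD with n = 4. Nothing in the labels ties a library number to a day or batch. The libraries are labelled as separate replicates, and whether each came from its own mouse is not spelled out for each library.

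Levels are in FPKM, fragments scaled to gene length and to library depth, so different genes may be ordered by level. All 22032 protein-coding genes of the table were ranked by their mean FPKM over the 4 libraries. A mean of at least 1 was taken as detected, which 12285 genes reached. Of these, 11651 were at or above 1 in every library. The classes described are transcription factors (1113 genes), membrane transporters and channels (841), cell surface receptors (701), secreted proteins (1016) and cell junction proteins (146). A class was set by gene symbol, with corrections by hand, so its borders are a convention. Spread is given as the coefficient of variation, the SD as a percentage of the mean, for the 6171 genes with a mean of at least 10.

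Cholangiocytes line the bile ducts and modify the bile that hepatocytes secrete, adding water and bicarbonate and taking up glucose and bile acids. Ion pumps in the basolateral membrane set up the gradients, apical chloride channels and anion exchangers move bicarbonate into the lumen, and the hormone secretin raises this flow while somatostatin lowers it. Tight and adherens junctions seal the duct against bile. The transcription factors Sox9 and Onecut1 are known for their part in forming the bile ducts from the embryonic liver bud.

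The promoters of the leading gene of each class for which a RefSeq promoter was at hand, and of Epcam, the bead target, are shown because these genes define the fraction by level. Each holds 250 bases before and 50 after the RefSeq start on build GRCm38.p6, 5′ to 3′ on the strand of the gene. Capitals mark the letters of the CCAAT box (CCAAT, or ATTGG on the other strand) and of the TATA box (TATAAA), wherever they fall. Both strands were searched for each, and the motifs did not overlap one another. The stretches lie at chr5:104434861-104435160 (plus strand) for Spp1, chr19:37434591-37434890 (plus strand) for Hhex, chr1:164458306-164458605 (minus strand) for Atp1b1, chr1:130826434-130826733 (plus strand) for Pigr, chr5:134985964-134986263 (plus strand) for Cldn3 and chr17:87635729-87636028 (plus strand) for Epcam.
Spp1: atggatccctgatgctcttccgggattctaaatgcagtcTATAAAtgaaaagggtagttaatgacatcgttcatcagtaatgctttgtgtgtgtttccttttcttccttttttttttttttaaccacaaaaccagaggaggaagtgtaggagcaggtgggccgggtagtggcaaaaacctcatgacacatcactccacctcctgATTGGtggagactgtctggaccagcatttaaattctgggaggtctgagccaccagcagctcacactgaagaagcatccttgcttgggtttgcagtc
Hhex: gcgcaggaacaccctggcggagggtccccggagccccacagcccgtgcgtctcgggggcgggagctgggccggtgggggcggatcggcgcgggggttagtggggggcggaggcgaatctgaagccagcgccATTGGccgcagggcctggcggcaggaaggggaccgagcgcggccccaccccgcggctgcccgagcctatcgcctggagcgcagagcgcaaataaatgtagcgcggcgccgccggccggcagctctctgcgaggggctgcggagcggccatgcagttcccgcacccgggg
Atp1b1: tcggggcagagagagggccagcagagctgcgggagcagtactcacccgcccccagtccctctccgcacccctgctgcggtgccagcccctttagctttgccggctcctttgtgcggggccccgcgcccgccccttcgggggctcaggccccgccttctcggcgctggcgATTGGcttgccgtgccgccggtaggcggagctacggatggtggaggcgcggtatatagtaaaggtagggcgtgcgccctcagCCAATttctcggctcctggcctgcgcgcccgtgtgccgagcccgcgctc
Pigr: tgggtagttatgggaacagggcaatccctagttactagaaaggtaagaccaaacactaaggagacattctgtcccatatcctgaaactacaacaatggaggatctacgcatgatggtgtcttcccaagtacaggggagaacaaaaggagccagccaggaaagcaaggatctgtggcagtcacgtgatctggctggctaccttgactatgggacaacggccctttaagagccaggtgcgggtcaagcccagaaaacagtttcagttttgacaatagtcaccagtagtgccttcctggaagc
Cldn3: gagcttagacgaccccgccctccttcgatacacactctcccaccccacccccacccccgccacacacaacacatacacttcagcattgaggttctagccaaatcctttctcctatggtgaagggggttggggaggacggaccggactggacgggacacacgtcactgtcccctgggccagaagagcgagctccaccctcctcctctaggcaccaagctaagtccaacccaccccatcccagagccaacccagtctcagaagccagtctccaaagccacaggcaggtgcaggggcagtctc
Epcam: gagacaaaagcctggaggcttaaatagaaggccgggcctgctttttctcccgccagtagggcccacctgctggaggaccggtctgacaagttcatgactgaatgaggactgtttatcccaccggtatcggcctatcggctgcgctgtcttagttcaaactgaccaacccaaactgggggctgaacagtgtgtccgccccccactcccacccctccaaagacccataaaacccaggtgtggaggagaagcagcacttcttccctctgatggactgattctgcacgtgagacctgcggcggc

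Positions are counted from 1 at the 5′ end of each window, of which the first 250 bases precede the start. Spp1 carried the letters of both motifs, with TATAAA from base 40, which is 211 bases before the start, and ATTGG from base 205. Hhex had ATTGG from base 132, and Atp1b1 had ATTGG from base 170 and CCAAT from base 252, at the start itself. The CCAAT box is the sequence that the NF-Y factor named in the study's title is known to bind. The letters of both motifs were not in the windows of Pigr, Cldn3 and Epcam, which says nothing about the factors themselves. A RefSeq promoter was found for 16578 of 22002 protein-coding symbols. The CCAAT letters stood in 38.8% of all these promoters, in 38.4% of the 9635 with a detected gene and in 39.2% of the 6943 with a gene under FPKM 1. TATAAA stood in 12.8% of all, 7.13% of the detected and 20.6% of the others. Among the 100 most abundant genes, 69 had a promoter, and 28 of these (40.6%) held the CCAAT letters and 16 (23.2%) TATAAA. These shares count the letters anywhere in the window, with no rule on position, and are descriptions of the sequences.

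The cholangiocyte label was checked against its marker genes, and these were abundant in all 4 libraries. Epcam itself stood at 259, 301, 315 and 285 FPKM in Control 1 to Control 4, a mean of 289.9 ± 24.2. Because Epcam is the bead target, its level is no independent check of the label. Spp1, which encodes the secreted phosphoprotein osteopontin, was the most abundant protein-coding transcript, with 6491, 9773, 6912 and 7105. The keratin Krt19, an intermediate filament of duct epithelium, was at 667, 292, 531 and 388. It varied more than most, lowest in Control 2 and highest in Control 1. Krt7, its partner in ducts, was lower, at 39.6, 32.2, 35.3 and 34.9, with a mean of 35.5 ± 3.08. Sox9 was at 102, 127, 90.7 and 96.2, highest in Control 2. Of 20 cholangiocyte markers, 19 were detected. Krt8 (776 ± 89.6), Krt18 (614 ± 51.1), Anxa13 (327 ± 6.89), Tspan8 (265 ± 22.96), Muc1 (206 ± 38.03) and Prom1 (138 ± 8.56) all stood above FPKM 100. Genes of dividing cells, looked up for the resting label after values were known, were low but not at 0. Mki67 was at 1.63, 2.84, 4.25 and 1.94 and Top2a at 1.14, 1.79, 2.64 and 1.26, both highest in Control 3 and lowest in Control 1.

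Some libraries stood apart in transcripts of other organs. The summed FPKM of 20 pancreatic acinar genes was 9966, 2654, 1195 and 10.7 in Control 1 to Control 4, which is 3.34% of all protein-coding FPKM in Control 1 and 0.00378% in Control 4. Control 3 alone was high in 7 genes of the gastric mucosa, with 161, 77.6, 11252 and 119, and highest in 12 intestinal genes, with 193, 34.5, 454 and 127. The 14 endothelial markers summed to 138, 188, 598 and 422, higher in Control 3 and Control 4, and all 14 were detected. Vwf, at 2.15, 3.56, 3.27 and 3.10, did not follow the sum and was highest in Control 2. Neutrophil markers were 16.4 and 7.72 in Control 1 and Control 2 against 107 and 103 in Control 3 and Control 4, and 1 of 9 was detected, Ltf, which epithelia also make. Macrophage markers lay between 156 and 186 in all 4 libraries. Of 12 stellate cell and fibroblast markers 3 were detected. Rgs5 led them at 34.3, 57.6, 30.9 and 27.3, whereas the collagen gene Col1a1 was at 0.0677 ± 0.0554 and Pdgfrb at 0.07001 ± 0.0288. Mesothelial markers summed to 36.5 to 59.3, and B and plasma cell markers to 41.4 to 89.8, most of it Jchain (54.7 ± 18.7), the joining chain of secreted IgA. T and NK cell markers were low everywhere, at 3.42 at most, with 0 of 9 detected, and erythroid markers reached 5.74. Because these are bulk samples, fewer cells of a type and less RNA per cell cannot be told apart.

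Hepatocyte markers summed to 3521, 4386, 3756 and 3700, 1.30 ± 0.147% of the total, and 24 of 26 were detected. Alb alone made up 67.7% to 76.7% of that sum, and with Ttr (389.6 ± 42.98), Trf (192 ± 38.02) and Ahsg (172 ± 19.3) the leading 4 made up 89.4% to 94.9%. Apoa1, the main protein of high-density lipoprotein and abundant in hepatocytes, was at 22.00, 38.3, 24.8 and 9.82. The ratio of Alb to Apoa1 thus ran from 81.4 in Control 2 to 289 in Control 4. Among enzymes of hepatocyte metabolism, Cyp2e1 was at 6.81, 12.7, 4.71 and 1.92. Cyp2e1, Apoa1 and Alb were all highest in Control 2, but Cyp2e1 and Apoa1 were lowest in Control 4 and Alb in Control 1. Cps1, a urea cycle enzyme that the intestine also makes, was at 1.64, 2.85, 22.05 and 0.678, high in Control 3 alone. Pck1 (0.611 ± 0.293) had a mean under the detection limit of 1. How much of Alb came from hepatocytes was not tested.

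**Figure D1:**
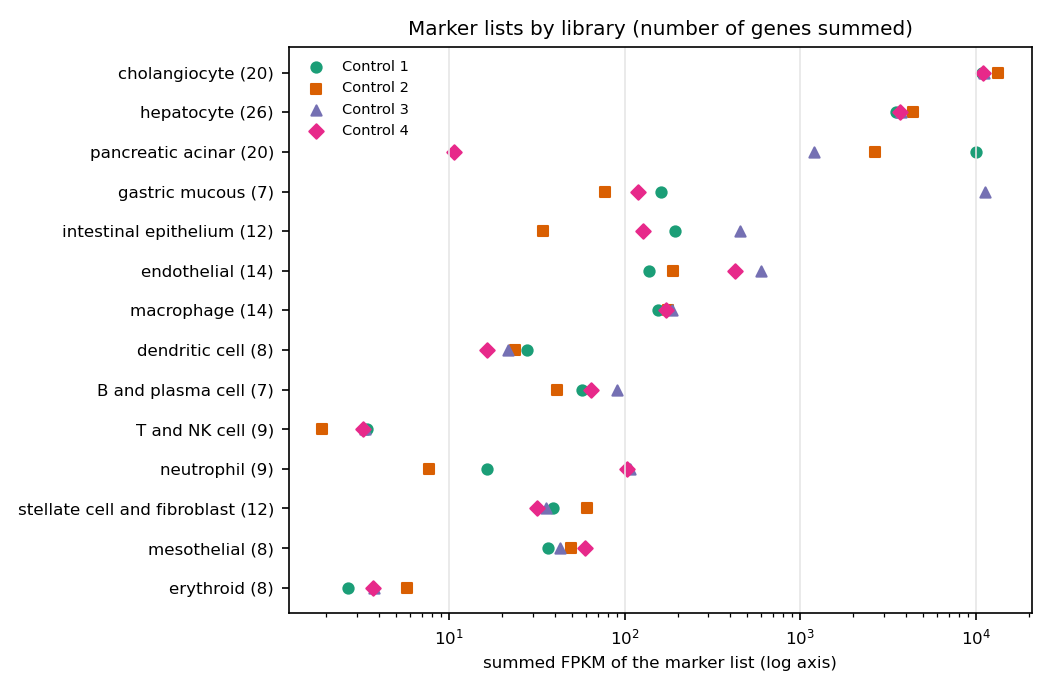
Summed FPKM of marker genes for 14 cell types in each Control library, on a log axis, with the number of genes summed in brackets. The cholangiocyte sum lies between 10789.9 and 13406 in all 4 libraries, while the pancreatic sum runs from 10.7 to 9966 and the gastric sum is high in Control 3 alone.

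The most abundant transcripts took a large share of the total for their number, though not most of it. Spp1 alone held 2.57 ± 0.546% of protein-coding FPKM, the leading 10 genes 9.10 ± 1.06% and the leading 100 genes 22.6 ± 1.19%. Only 12 genes had a mean of at least 1000, and 379 of at least 100. Among the 12 was Tff2, through Control 3 alone (157, 73.8, 6346 and 115). After Spp1 came Clu, a secreted chaperone, at 4392, 4933, 4228 and 4250.4, then Apoe, a lipid carrier, at 2848, 4172, 3208 and 3489, and Alb, plasma albumin, at 2385, 3117, 2750.4 and 2839. All 3 were highest in Control 2, as Spp1 was. Anxa5, which binds phosphatidylserine on membranes, followed with 1773 ± 201. Apart from secreted proteins, the leading 20 held the translation genes Eef1a1 (1661 ± 92.4), Eef2 (658 ± 39.3), Rplp1 (1045 ± 108) and Rps27 (992 ± 95.3), the tetraspan membrane protein gene Tm4sf4 (946 ± 109), the ferritin heavy chain gene Fth1 (890.3 ± 116), Krt8 and App (670.4 ± 99.3), the amyloid precursor protein gene. B2m and H2-K1, which encode the light chain and a heavy chain of class I MHC, were at 1600.2, 1344, 1339.6 and 903 and at 1114, 868, 762 and 519. Both were highest in Control 1 and lowest in Control 4. Processed copies of Eef1a1 and of ribosomal protein genes are near identical to them, so their levels are uncertain.

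Transcription factors made up 3.01 ± 0.238% of the total, and 712 of 1113 were detected. Hhex, a homeodomain factor of the early liver and bile duct, led the class with 132, 190.0, 156 and 175. It was lowest in Control 1 and highest in Control 2. The cut homeodomain factor Onecut1 was at 70.1, 78.7, 59.2 and 78.3, and its relative Onecut2 at 60.1, 52.4, 45.2 and 65.8. Hnf4a, better known from hepatocytes, was at 29.3, 19.8, 29.4 and 22.4. Hhex (chr19:37434810-37440731) overlaps no other gene of the table.

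Sox4 and Sox9 were the next developmental factors. Sox4 stood at 103, 130.3, 107 and 109 and was above Sox9 in 4 of 4 libraries, by 8.01 ± 7.66. No other SOX gene of 19 had a mean above 10, and the nearest, Sox18, an endothelial factor, was at 3.52, 3.76, 13.7 and 8.82 and followed the order of the endothelial sum. Gata6 stood at 49.7 ± 1.67 against 6.73 ± 5.37 for Gata4, a ratio of 3.49 to 19.5 over the libraries. Gata4, which liver endothelium also makes, was at 2.49, 3.35, 14.3 and 6.79 and again highest in Control 3. The forkhead factors of endoderm were at 34.1 ± 1.53 for Foxa2, 22.9 ± 3.78 for Foxa1 and 7.38 ± 1.93 for Foxa3. Foxj1, the regulator of motile cilia, was the most abundant forkhead gene at 45.1 ± 13.8. Among 39 Hox genes none was detected at a mean of 1, and the highest, Hoxb4, was at 0.846.

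The AP-1 genes were abundant and uneven. Jun stood at 126, 109, 153 and 192, Junb at 101, 84.6, 149 and 217 and Fos at 93.7, 36.5, 99.6 and 227. All 3 were lowest in Control 2 and highest in Control 4. The same order at both ends held for Egr1 (39.1, 32.1, 60.3 and 116), Atf3 (18.8, 14.2, 24.8 and 75.6) and Fosb (7.32, 4.82, 9.95 and 28.5), other immediate early genes. Jund varied less, at 82.9, 51.3, 79.8 and 89.99, and lost its place in the leading 10 when Control 1, Control 3 or Control 4 was left out.

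Other leading factors ranged from steady to uneven. Srebf2, the regulator of cholesterol synthesis, was at 82.6, 84.97, 85.5 and 84.98, a coefficient of variation of 1.52%. Myrf, a membrane-bound factor first known from myelin, was at 83.9 ± 8.82. Of the epithelial ETS factors, Ehf was at 76.01 ± 7.88 and Elf3, lowest in Control 2, at 86.02, 28.4, 66.2 and 84.5. The least variable of all abundant transcription factors were Atf6 (1.09%), Tcf3 (1.21%) and Rela (1.28%), the last a subunit of NF-kB at 45.6, 46.3, 46.4 and 47.03. Among nuclear receptors Thra (44.5 ± 1.82), Nr2f2 (36.1 ± 2.44) and Nr1h2 (34.5 ± 1.39) led, and among KLF factors Klf3 (45.3 ± 2.73), Klf6 (43.1 ± 8.84) and Klf5 (42.7 ± 15.1). Hes1, a target of Notch, was at 49.00, 54.4, 63.3 and 53.2. The 3 subunits of NF-Y were modest and even, with Nfya at 11.1, 13.8, 12.3 and 13.1, Nfyb at 7.15, 5.86, 6.56 and 6.66 and Nfyc at 14.3, 14.5, 14.3 and 14.8. Jun, Sox4, Srebf2 and Jund overlap another gene of the table, and no source used here gives the strand setting of the counting, so reads of the partner could not be told apart.

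**Figure D2:**
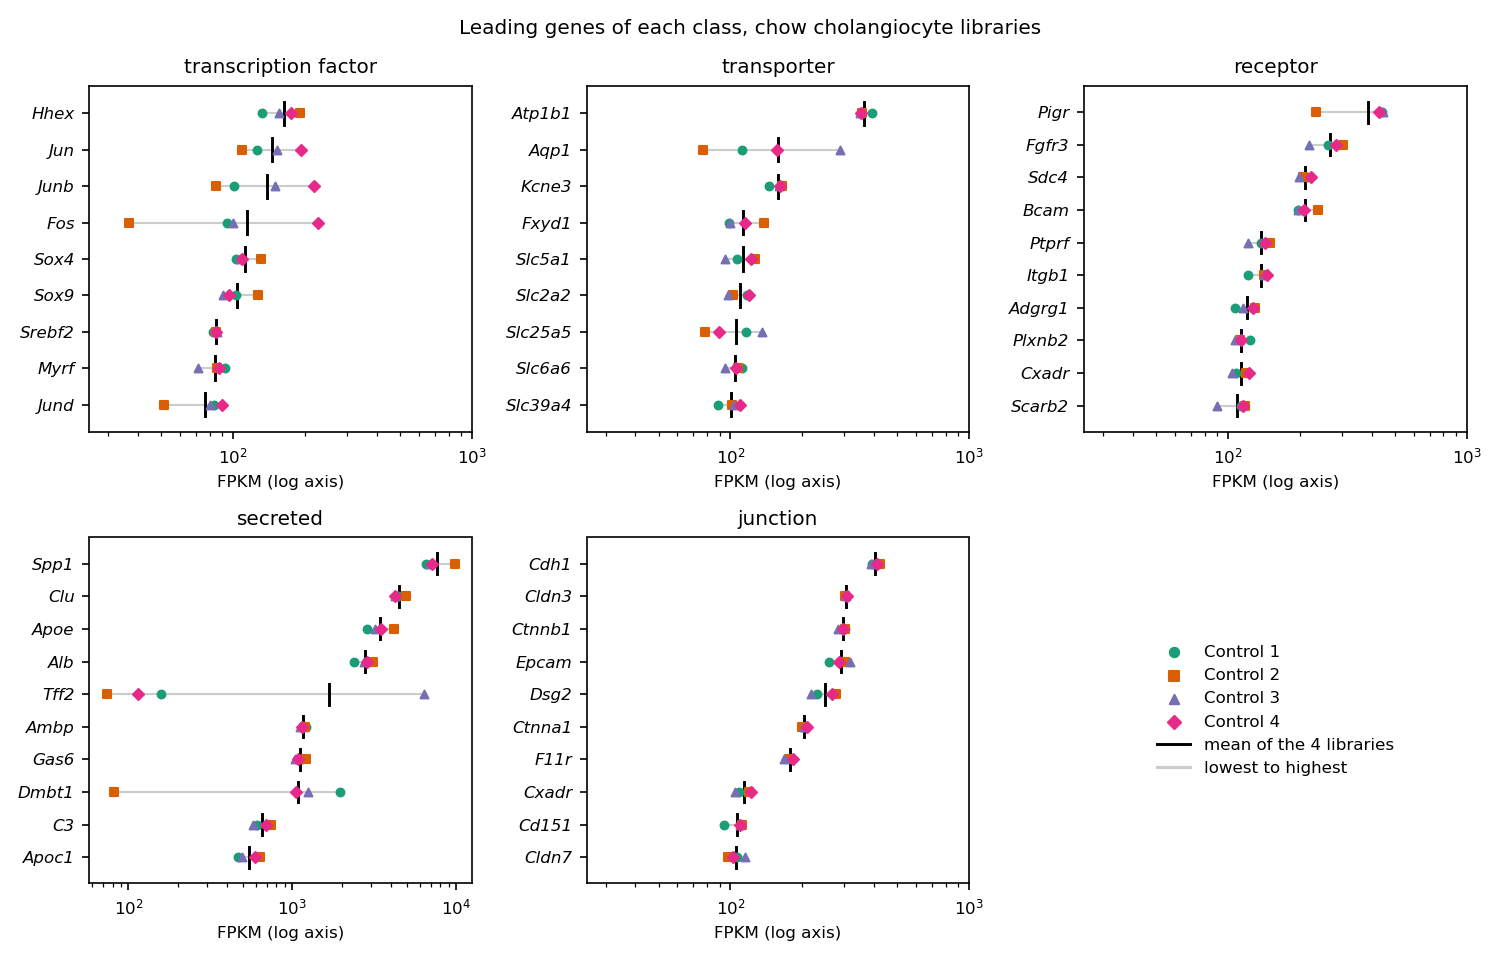
FPKM of genes named from the 10 most abundant of each class, with 1 point per Control library, the mean as a black bar and the range as a grey line, on log axes. Most junction genes, Atp1b1 and Srebf2 have points close together, while Fos, Aqp1, Pigr, Tff2 and Dmbt1 have 1 or more libraries far from the others.

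Transporters took 2.60 ± 0.0525% of the total, the most even share of the 5 classes, and 398 of 841 were detected. Atp1b1, the beta chain of the sodium pump in the basolateral membrane, was among its leading genes at 392, 357, 348 and 351. It made up 92.6% to 95.7% of the FPKM of the 4 beta chain genes, and Atp1b3 was at 20.3 ± 4.901. The pump's small regulator Fxyd1 was at 98.2, 139, 99.5 and 115, 2.92 to 5.08 times Fxyd3. Kcne3, a beta subunit of potassium channels, was close to even at 145, 164, 160.2 and 162.

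The water channel Aqp1 was abundant and uneven. It stood at 112, 76.7, 286 and 157, with Control 3 highest and Control 2 lowest. Endothelial cells also make Aqp1, and the endothelial sum was likewise highest in Control 3, but lowest in Control 1 and not in Control 2. Without Control 3 its mean was 115, and the part of endothelial RNA was not tested. Aqp5 followed at 15.98, 9.23, 28.8 and 6.26, and the other 9 members of the family had means of 3.20 or less.

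Genes for chloride and bicarbonate movement stood well below Atp1b1. The calcium-activated channel Ano1 was at 79.8, 69.3, 63.5 and 71.8 and the scramblase Ano6 at 74.7, 71.2, 61.96 and 69.8. Cftr, the cAMP-activated chloride channel that secretin opens, was at 7.89, 12.8, 25.9 and 9.94. It was highest in Control 3 and lowest in Control 1, with a coefficient of variation of 57.2%. The chloride-bicarbonate exchanger Slc4a2 was at 30.7, 26.2, 27.2 and 30.7, above Slc4a3 (22.3 ± 4.26) in 4 of 4 libraries by a ratio of 1.00 to 1.64. Slc4a4, a sodium bicarbonate cotransporter that pancreatic ducts also carry, was at 36.3, 10.4, 20.04 and 17.5 in Control 1 to Control 4. The pancreatic acinar sum was highest in Control 1 and second highest in Control 2, but it covers acinar and not duct genes. The part of pancreatic RNA in Slc4a4 was not tested. Slc26a3, an exchanger of the gut, was at 18.5, 0.01904, 9.88 and 0.435, nearly absent from Control 2. The sodium-proton exchanger Slc9a3 of absorptive epithelia ran from 0.00695 in Control 2 to 17.5 in Control 1.

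Carriers of sugars and bile acids made the next group. The sodium-glucose cotransporter Slc5a1 (107, 127, 95.01 and 121) and the facilitative carrier Slc2a2 (117, 102, 98.03 and 119) were alike in level, each above the other in 2 of 4 libraries. Slc2a1 was at 36.2 ± 2.89. Among carriers of bile acids and organic anions, Abcc3, a basolateral export pump, was highest at 50.2, 47.7, 52.5 and 58.8, then Slco3a1 at 30.9 ± 1.87. Slc10a2, the apical carrier that takes bile acids up in ducts and ileum, was at 15.8, 8.32, 10.7 and 12.5. The hepatocyte carriers Slc10a1 (0.677 ± 0.384) and Slco1b2 (0.462 ± 0.296) were under 1. Also among the leading 10 were Slc25a5, the mitochondrial ADP/ATP carrier, at 117, 78.2, 136 and 89.6, the taurine carrier Slc6a6 at 112, 107, 94.5 and 105 and the zinc carrier Slc39a4 at 88.4, 101, 103 and 110.1. Atp1b1, Slc5a1 and Slc2a2 overlap another gene.

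Receptors held 2.22 ± 0.142% of the total and 312 of 701 were detected. Pigr, which carries IgA across epithelia into bile, led with 442, 234, 446 and 429.8. Control 2 was far below the other 3 libraries. The mean of 388 ± 103 exceeded that of Fgfr3 by 120.4 ± 132, and in Control 2 the order was turned. Fgfr3, a receptor of fibroblast growth factors, was at 262, 305, 219 and 285, which was 4.03 to 4.73 times Fgfr2 (60.96 ± 8.26) in every library. Fgfr4 (45.6 ± 6.84) and Fgfr1 (33.2 ± 5.53) came below, and Fgfr3 made up 64.7% to 67.2% of the family's FPKM.

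Receptors for matrix and cell contact came next. The heparan sulfate proteoglycan Sdc4 was at 215, 207, 199.7 and 223, the laminin receptor Bcam at 196, 238, 196 and 209 and the integrin beta chain Itgb1 at 122, 142, 142 and 145. Among alpha chains Itga3, which pairs with Itgb1 to bind laminin, was at 77.5 ± 7.86, 2.44 to 2.64 times Itga5 (30.5 ± 2.44), and Itga9 was at 29.4 ± 4.28. Ptprf, a receptor phosphatase at cell contacts, was at 137, 150.1, 122 and 144, and Adgrg1, an adhesion receptor coupled to G proteins, at 108, 129.9, 115 and 127. Plxnb2, a receptor of semaphorins, stood at 123, 113, 107 and 113, and Ddr1, a collagen receptor, at 98.4 ± 7.01. Cxadr (114 ± 8.76) belongs to both the receptor and the junction list, and Scarb2 (114, 118, 90.2 and 116) is a lysosomal membrane receptor that was lowest in Control 3.

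Growth factor, Notch and hormone receptors were lower. Erbb3 led the EGF receptor family at 34.8, 31.7, 32.1 and 37.7, 1.42 to 1.71 times Erbb2 (21.9 ± 2.41), with Erbb4 at 12.5 ± 2.54 and Egfr at 7.695 ± 0.812. Met, the receptor of hepatocyte growth factor, was even at 28.4, 28.4, 26.2 and 28.1. Notch2 was at 41.4, 50.4, 34.8 and 48.4 and 3.38 to 6.30 times Notch1 (9.304 ± 1.14), while Notch4, an endothelial member, followed the endothelial sum at 0.645, 0.743, 2.32 and 1.62. The secretin receptor Sctr was at 9.53, 13.1, 7.62 and 10.7 and the somatostatin receptor Sstr2 at 5.94, 5.41, 4.76 and 5.73, with Sctr above in 4 of 4 libraries. The bile acid receptor Gpbar1 was listed at 0 in 3 libraries and at 0.0553 in Control 4. Of receptors of inflammation, Tnfrsf12a, the TWEAK receptor, was at 78.2 ± 9.84, Il6st, the shared chain of IL-6 family receptors, at 55.2 ± 7.199, and Ifngr1, a chain of the interferon gamma receptor, at 54.9 ± 1.94. Bcam, Ptprf and Scarb2 overlap another gene.

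The most variable receptors were those of other cell types or of single libraries. Clec4g, Kdr and Fcgr2b, genes of liver sinusoidal endothelium, were highest in Control 3 and Control 4, with Clec4g at 23.3, 29.8, 114 and 73.2 and Kdr at 8.37, 12.8, 44.4 and 31.9. Adgrg7, an orphan adhesion receptor of the intestine, was at 61.7, 0.436, 29.8 and 14.8, almost missing from Control 2. Without Control 1 its mean fell from 26.7 to 15.03. The steadiest were Gpr137 (0.8803%), Il17rc (2.43%) and Il10rb (2.74%), the last 2 being chains of cytokine receptors.

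**Figure D3:**
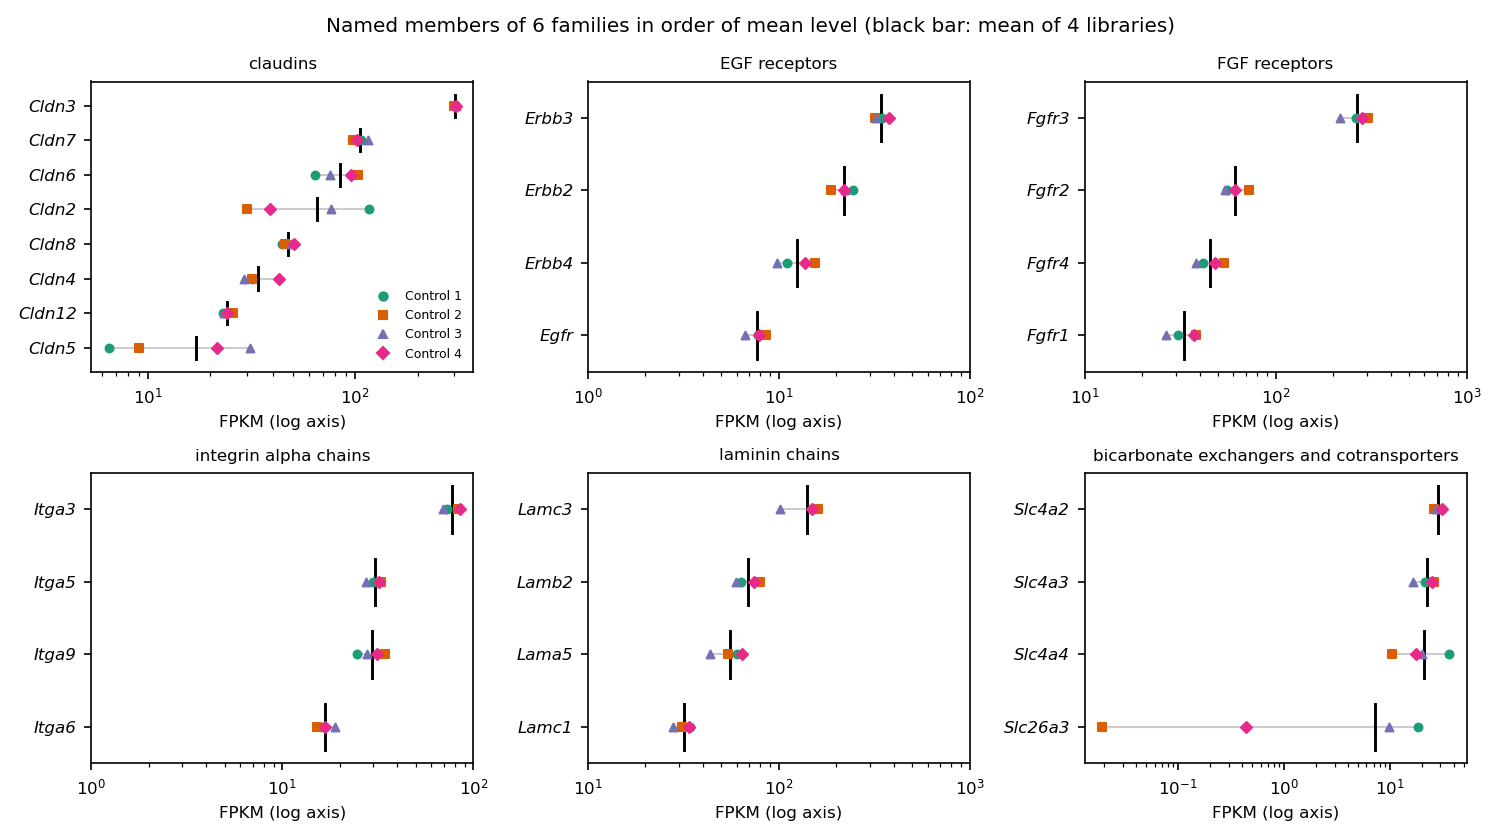
FPKM of named members of 6 families, with 1 point per Control library and the mean as a black bar, on log axes that differ between panels. Cldn3, Erbb3, Fgfr3, Itga3 and Lamc3 lie above their next relative in all 4 libraries, and for Slc4a2 and Slc4a3 the points overlap.

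Secreted proteins made the largest and least even class, 13.3 ± 1.37% of the total. Of its 412 detected genes 49 had a mean of at least 100, against 379 of all 12285 detected genes. Of these 49, 14 were pancreatic enzyme and 7 mucosal defence genes. Some reached 100 through 1 library, such as Gkn2 (0, 0, 1091 and 0). The median coefficient of variation of the class was 18.7%, against 7.20% over all genes. The class takes in pancreatic enzyme genes, which held 3.58% of the total in Control 1 and 0.00618% in Control 4. All 26 of these with a mean of at least 10 exceeded 50% in spread, with a median of 130.6%. Spp1 (chr5:104435118-104441050), Clu (chr14:65968483-65981548), Apoe and Alb kept this order among themselves in every library, and in Control 3 Tff2 stood between Spp1 and Clu. The protease inhibitor precursor Ambp was the steadiest of the leading 10 at 1218, 1193, 1109 and 1142, and Gas6, the ligand of TAM receptor kinases, was at 1138, 1217, 1042 and 1085. Complement C3 stood at 605, 742, 579 and 686, the lipid carrier protein Apoc1 at 465, 635, 493 and 589, the selenium carrier Selenop at 415, 433, 735 and 588 and the phagocytosis bridge Mfge8 at 444, 652, 435 and 473. Spp1, Apoe, C3, Apoc1 and Mfge8 were all highest in Control 2.

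In both remaining members of the leading 10 a single library stood far from the others, high in Tff2 and low in Dmbt1. Tff2, a trefoil peptide of gastric mucus, was at 157, 73.8, 6346 and 115. Its mean of 1673 fell to 115 without Control 3, and it left the leading 10 when libraries were summarised by their median. Dmbt1, a scavenger protein of mucosal surfaces, was at 1946, 81.8, 1237 and 1058. Here Control 2 was more than 10 times below each of the others. The gastrokines Gkn2 and Gkn3 and the trefoil gene Tff1 showed the pattern of Tff2, with Gkn2 listed at 0 in 3 libraries and at 1091 in Control 3. Without Control 1 and Control 3 the secreted share was 12.3%, and 9 of the leading 10 remained, with Mfge8 in place of Tff2.

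Basement membrane genes were abundant. Lamc3 was the leading laminin chain at 149, 160.3, 101 and 148, 1.71 to 2.35 times Lamb2 (63.6, 79.8, 59.3 and 74.3), and Lama5 (55.6 ± 8.99) and Lamc1 (31.7 ± 2.85) were lower. The chains Lama1 (0.0519 ± 0.0176) and Lama2 (0.00402 ± 0.00266) were near 0. Lamc3, Lamb2 and Lama5 were all lowest in Control 3. The proteoglycan Agrn (161 ± 23.6) and the fibulin Efemp1 (148 ± 17.95) also exceeded 100. Among growth factors, Igfbp7 (300.2 ± 65.1), which binds insulin-like growth factors and is made by endothelium as well, and Vegfa (161 ± 23.3), the main angiogenic factor, came after Gas6, and then Pdgfd (90.9 ± 10.97). No cytokine or chemokine gene reached a mean of 100, and Grn (84.6 ± 4.05), Mif (62.9 ± 5.56) and the neutrophil attractant Cxcl5 (21.6, 6.71, 84.7 and 69.3) were the leading ones. Protease inhibitors included Cst3, which inhibits cysteine proteases, at 248, 205, 218 and 171, and the gut and goblet cell gene Spink4, which was at 155, 12.1, 212 and 197.

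Junction genes were few and abundant, and the leading ones were even. The class held 1.53 ± 0.0842% of the total, 96 of 146 were detected and 11 exceeded 100. Their median level among detected members was 19.2, against 10.1 for all detected protein-coding genes. Cdh1, E-cadherin of adherens junctions, was at 389, 423, 388 and 409, 10.1 to 11.7 times the next cadherin, Cdh6 (36.9 ± 4.09), and its partners were Ctnnb1 at 301, 301, 282 and 295, Ctnna1 at 200.5, 198, 203 and 208 and Ctnnd1 at 103 ± 5.63. The desmosomal cadherin Dsg2 was at 231, 277, 217 and 266.

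Cldn3 was the leading tight junction gene and the least variable gene of the class. It stood at 306, 301, 305 and 307, a coefficient of variation of 0.854%. It made up 41.4% to 45.5% of claudin FPKM and was 2.65 to 3.08 times Cldn7, which stood at 107, 97.6, 115 and 102. Cldn6 followed at 64.1, 103, 75.6 and 95.4, then Cldn2, a cation and water pore, at 117, 29.9, 76.3 and 38.7. Control 1 was highest in Cldn2 and Control 2 lowest. Cldn8 (47.5 ± 2.83), Cldn4 (33.9 ± 6.12) and Cldn12 (23.96 ± 1.27) came below, and the endothelial Cldn5 was at 6.45, 9.05, 31.2 and 21.4. Cldn1 was at 0.8103 ± 0.257. The junction adhesion molecule F11r was at 181, 175, 168 and 183, and the tight junction plaque gene Cgn at 86.4 ± 13.2.

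Gap junctions were made mainly of Gjb1 (111, 77.6, 102 and 82.1) and Gja1 (80.1, 90.1, 76.2 and 72.96), with Gjb1 above in 3 of 4 libraries. In hemidesmosomes the tetraspanin Cd151 (94.2, 111, 109 and 109) exceeded Plec (26.8 ± 3.46), Itgb4 (25.02 ± 1.51) and Itga6 (16.7 ± 1.504). The most variable junction genes were the endothelial Cldn5 and Cdh5 (9.01, 13.4, 39.5 and 27.2) and then Cldn2. Cldn3, Ctnnb1, Dsg2, Ctnna1 and Cd151 overlap another gene, so these 5 of the leading 10 carry the same limit as above.

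Over all abundant genes the spread between libraries was small but larger than counting error. The median coefficient of variation was 7.20%, with the 10th percentile at 3.14% and the 90th at 16.8%. Counting error of the reads alone would give a median of 1.37%, and 6077 of 6171 genes (98.5%) exceeded their own. At FPKM 10 the median gene had 2494 reads behind it. There were 183 genes under 2%, led by Kat8 (16.9, 17.1, 16.9 and 17.00), a histone acetyltransferase, and Tbk1 (16.7, 16.5, 16.7 and 16.5), a kinase of innate immunity. At the other end, 187 genes (3.03%) exceeded 50%, and 142 of these are in no list of another cell type. The lists are short, and the 142 still hold genes of other cells. Examples are the endothelial Fcgr2b (71.2%) and Esam (60.3%) and the pancreatic amylase gene Amy2a1. Genes over 50% were 52 of the 198 abundant secreted genes (26.3%), of which 26 were pancreatic enzyme and 15 mucosal defence genes. They were also 19 of 151 receptors (12.6%), 4 of 66 junction genes (6.06%), 5 of 178 transporters (2.81%) and 5 of 258 transcription factors (1.94%).

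**Figure D4:**
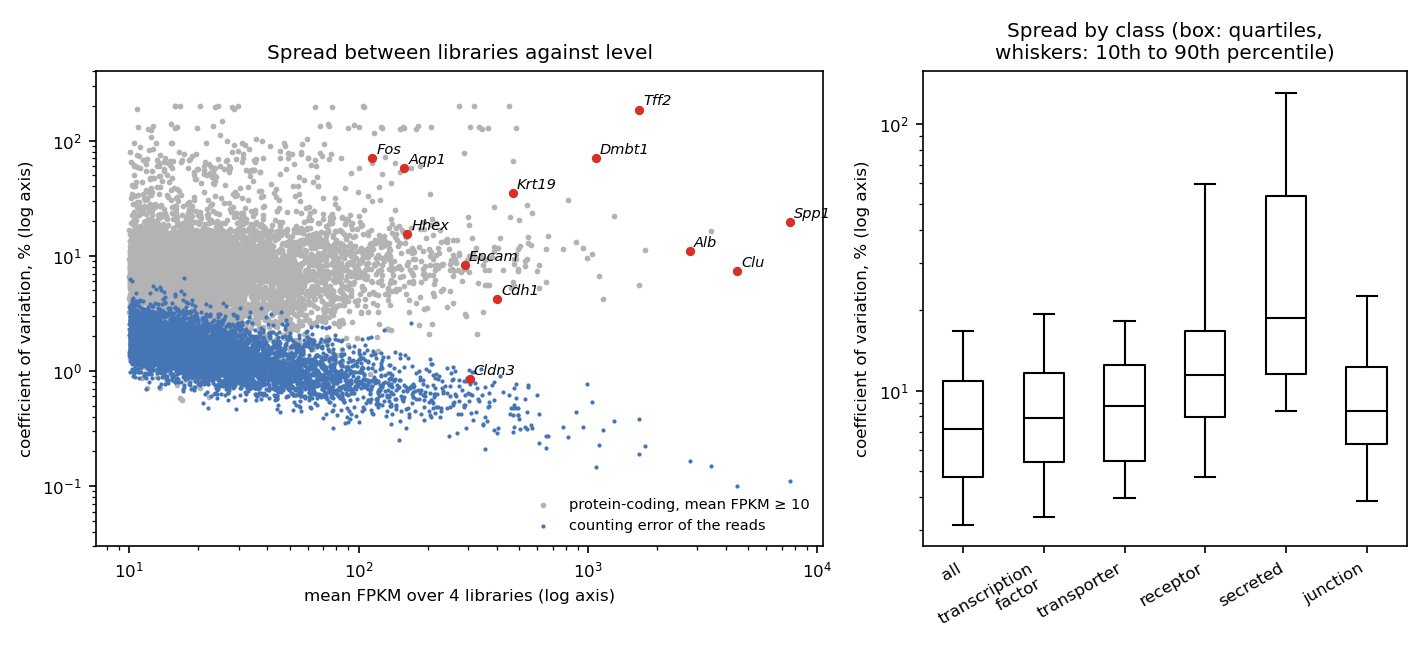
Left, coefficient of variation over the 4 Control libraries against mean FPKM for 6171 protein-coding genes (grey), with the counting error of each gene in blue and 12 named genes in red, both axes logarithmic. Right, the same coefficient by class, where secreted genes, pancreatic enzymes included, have the highest median (18.7%) and the widest range.

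The 187 variable genes fell into a few patterns by library. Control 3 was the highest library for 91 of them, Control 1 for 76, Control 4 for 15 and Control 2 for 5, which is 48.7%, 40.6%, 8.02% and 2.67%. Over all 6171 abundant genes these libraries were highest for 34.1%, 16.9%, 17.2% and 31.7%. Control 2 was the lowest for 80, Control 4 for 60 and Control 1 for 47, that is 42.8%, 32.1% and 25.1%, against 19.7%, 23.6% and 30.3% over all abundant genes. A tie counted for the first library in number. Thus genes such as Gkn2, at 0 in Control 1, Control 2 and Control 4, count as lowest in Control 1. The genes named next were taken from these patterns after their values were seen. In 50 genes Control 1 was highest and Control 4 lowest. Most abundant there were pancreatic enzymes, such as the chymotrypsinogen gene Ctrb1 (1399.9, 357, 188 and 0.5197) and the lipase gene Pnlip (974, 262, 105 and 0.0301). The same pattern held antigen presentation and interferon-responsive genes, with the class II invariant chain Cd74 at 912, 449, 343 and 179, H2-Eb1 at 339, 182, 143 and 75.5 and Tgtp1 at 164, 29.9, 71.9 and 17.6. Dendritic cell markers summed to 27.8, 23.6, 21.8 and 16.4, in the order of Cd74, but their members differed. Itgax (9.30, 6.11, 5.27 and 3.22) had this order, while Zbtb46 (3.57, 4.64, 5.08 and 5.08) and Cd209a (6.45, 8.04, 7.10 and 4.36) did not. The macrophage sum did not have it, and within that sum Mrc1 was at 10.3, 13.4, 48.0 and 34.7. The part of dendritic cells and macrophages was not tested.

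A second set had its lowest value in Control 2. In 26 genes Control 1 was highest and Control 2 lowest. They included, besides Dmbt1, the surface protein gene Ly6d at 562, 7.72, 270.1 and 315, the matrix protease Mmp7 at 148, 30.1, 96.1 and 94.9, the calcium-binding S100g at 121, 0.07203, 105 and 13.2 and Cldn2. In a further 41 genes Control 3 was highest and Control 2 lowest, among them Tff2, Aqp1, Spink4, the gut galectin Lgals4 (123, 11.6, 126 and 41.1) and lactoferrin, Ltf (15.5, 6.21, 104 and 102). Of these, Tff2 was set apart by Control 3 alone (6346), with Control 2 (73.8) not far below Control 4 (115). Krt19 and Pigr, though under 50% in spread, were lowest in Control 2 as well, whereas Spp1 and Sox9 were highest there. In 45 genes, ties at 0 included, Control 3 was highest and Control 1 lowest. They included gastric genes such as Muc6 (0.263, 1.08, 302 and 2.22) and endothelial genes such as Eng (21.9, 29.5, 92.9 and 64.2) and Stab2 (9.65, 12.99, 45.1 and 37.9). The intestinal genes Defa24 and Alpi and Mrc1 of the macrophage list had this pattern as well.

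Control 4 was highest and Control 2 lowest in 13 genes. Fos, Egr1, Atf3 and Fosb are among them, with Zfp36, an RNA-decay protein of the same early response, at 93.4, 56.6, 104 and 269.8 and Socs3, an inhibitor of cytokine signalling, at 10.7, 9.19, 16.2 and 38.9. The oxidase gene Duox2 was at 25.04, 1.96, 31.1 and 61.1 and its maturation factor Duoxa2 at 25.96, 2.19, 36.5 and 60.1, side by side in level and order. Chil4, a chitinase-like secreted protein, was at 0.383, 0.3501, 2.699 and 417, high in Control 4 alone. In 5 genes Control 2 was highest and Control 4 lowest, all of them hepatocyte products, such as Apoa2 at 35.2, 56.9, 26.4 and 14.2.

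**Figure D5:**
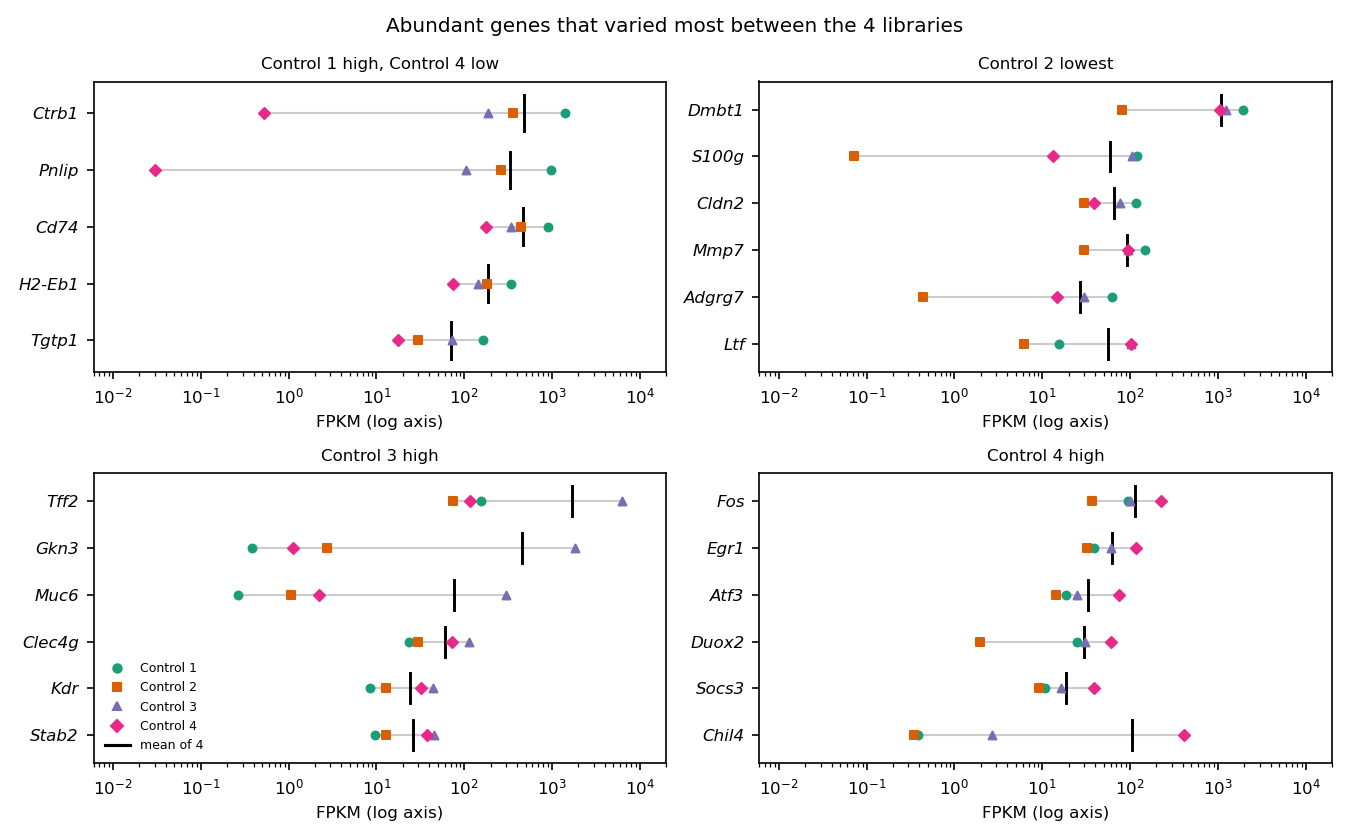
FPKM of 23 abundant genes in 4 patterns, with 1 point per Control library, the mean as a black bar and values under 0.01 drawn at 0.01, on log axes. Pancreatic and class II genes are highest in Control 1, Dmbt1 and others lowest in Control 2, gastric and endothelial genes highest in Control 3, and Chil4 is high in Control 4 alone.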

How the data were processed

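Values are FPKM as deposited by the authors in a single table with gene types, lengths and coordinates. Libraries were made from poly(A) RNA with a stranded kit, per the labels' protocols, and the build is mm10, per the submitters' processing notes. Aligner, counter, gene models and strand setting were not given in the sources used here. Whole reads could be recovered for 100% of values (tolerance 0.001), with the smallest nonzero value as 1 read and 1 base added to the length. They came to 70373265, 57728932, 69205068 and 67170313 for Control 1 to 4 and served for depth and counting error only. At FPKM 1 the median gene had 136 reads. All 37 mitochondrial genes stood at 0.

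Mean, SD, coefficient of variation and rank were computed with Python 3.11.15, pandas 2.3.3 and numpy 2.4.6 and tested on simulated data. Figures were drawn with matplotlib 3.10.9. No groups were compared, so there is no hypothesis test. Classes were set by symbol patterns, with 86 genes taken out and 2 put in after their values were seen. Named genes were the leading 20 overall and 10 per class, the leading 3 of each subclass and marker list, the most and least variable, and members of 27 families. Some genes that the rule selects are not reported here. Genes outside this rule were chosen after their values were seen. Members and lists were chosen with earlier results of these data known. Alternatives were each library left out, Control 1 and Control 3 left out together, 2 other scalings, the median, ranking by the mean of log2(FPKM + 1) or log2(FPKM + 0.1), other limits, genes that overlap no other gene and, added after seeing the data, the class lists as first written.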

Additional observations from a re-analysis of the deposited data

Results flagged for a closer look

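A gap to the nearest other library that takes up most of the range of the 4 libraries marks a value for a closer look. By chance about 5% of genes would show one, and of the 6171 genes with a mean of at least 10, 305 (4.94%) did. Of 329 named genes 30 did, and of 19 class shares and marker sums 3 did. Some named genes were chosen for high spread over these same libraries, so their count cannot be set against 5%.

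The commonest pattern was a high value in Control 3 alone. It held the gastric and intestinal genes Tff2 (6346), Gkn3 (1806), Tff1 (1275), Gkn2 (1091), Gkn1 (419.6), Muc6 (302), Clca1 (118), Prap1 (96.96), Lypd8 (81.2), Mucl3 (66.6), Defa24 (63.2) and Alpi (63.04), with the gastric mucous sum at 11252. Defa24 belongs to a family of near-identical defensin genes, so its level is uncertain. Smaller shifts of Control 3 were seen in Eef1a1 (1798), Tspan8 (299.5) and Mif (71.1), which were high there, and in Scarb2 (90.2) and Nfic (35.8), which were low.

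Control 4 alone held Chil4 (417), the basal keratin Krt5 (13.1) and Trp63 (0.346), the basal epithelial relative of p53, with Krt5 at 0 in each of the other libraries. Klf6 (56.3) was also highest there. Control 2 alone was low in Pigr (234) and in the T and NK cell sum (1.89). It was high in the cholangiocyte sum (13406), in the sphingolipid exporter Spns2 (91.6), in Ctcf (26.1) and in the globin gene Hbb-bt (0.984), which shares sequence with other beta globins. Control 1 was high in Tm4sf4 (1109.8) and, by a small margin, Gpr137 (13.3), and low in Itgb1 (122), Cd151 (94.2) and Trp53 (15.4).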

How the results depend on the processing

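No paired analysis was possible because 1 group alone was described and no result comes from a test. Of 10 shares of the total, 3 moved by over 1.5 times under an alternative, those of the leading 10 genes, the pancreatic and the gastric markers. With only the genes that overlap no other gene, the leading 10 genes held 13.9% and the leading 100 held 31.3% of the total, which by construction has fewer genes. In that set 6 of the leading 10 transcription factors and 5 of the leading 10 junction genes remained. The median coefficient of variation was 3.70% from Control 2 and Control 4 alone, which are 2 libraries, and 13.01% with no limit on low values. Leaving out each library in turn moved it between 5.82% and 7.47%.

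Single libraries carried some values. Of the 6171 abundant genes, 79 had a mean that moved by over 1.5 times when 1 library was left out, 43 for Control 1, 27 for Control 3, 9 for Control 4 and 0 for Control 2, each of them lower without it. The pancreatic share of 1.16% was 0.434% without Control 1, 0.458% without Control 1 and Control 3 and 0.6495% by the median, and the gastric share of 0.941% was 0.0409% without Control 3, 0.0343% without both and 0.0481% by the median. Of 329 named genes, low ones included, 32 moved by over 1.5 times when 1 library was left out (7 for Control 1, 1 for Control 2, 15 for Control 3 and 9 for Control 4), 33 without Control 1 and Control 3 and 22 by the median. Under the other scalings 0 did. With the class lists as first written, chosen after seeing the data, 7 of the leading 10 transcription factors, 9 transporters, 9 receptors, 9 secreted genes and 10 junction genes remained. With 4 libraries the SD itself is imprecise.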

Other observations

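Further gene groups are given by their levels. The vacuolar proton pump was abundant and even, and of its 24 genes 19 were detected, led by Atp6v1e1 (74.8 ± 4.02 FPKM, SD, n = 4) and Atp6v1f (70.1 ± 3.499), with a median coefficient of variation of 5.96%. The peroxisomal carrier Abcd3 (61.4 ± 4.25) led the ABC transporters, and the drug efflux pump Abcb1a was at 43.5, 39.8, 37.6 and 40.7 in Control 1 to Control 4. All 4 TEAD factors, the DNA-binding partners of YAP, were detected, with Tead1 at 25.1, 27.6, 19.3 and 27.9. All 4 NFI factors were detected as well, with Nfix at 55.5, 64.9, 52.00 and 59.98. Of the TCF and LEF factors of Wnt signalling, Tcf7l1 led at 11.7, 14.5, 12.3 and 13.2, and Lef1 was at 0.0669 ± 0.02302. Prox1, a homeodomain factor of liver and lymphatic endothelium, was at 44.7, 55.5, 42.2 and 52.96.

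G protein-coupled receptors were the sparsest receptor group, with 83 of 326 detected. After Adgrg1 came Adgre5 (55.7 ± 6.53) and Gprc5c (49.5 ± 5.08), and the protease-activated receptor F2rl1 was at 42.1 ± 3.24. The peptide hormone genes included Agt, angiotensinogen, at 73.6, 102, 67.2 and 67.4 and the iron hormone Hamp at 14.3, 13.9, 16.6 and 9.55, both also products of hepatocytes.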
